A study of Homo sapiens with 6 samples.

Results

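The nuclear genome encodes most protein subunits of the respiratory chain and of ATP synthase, and 86 gene rows of the 57820 in each count table carry the name of such a subunit. These rows were chosen by symbol alone, as names of the NDUF, SDH, UQCR, CYC1, COX and ATP5 series. The rule uses no expression value, though earlier results of these data were known when it was set. They bear 82 names, because NDUFA7, NDUFB8, SDHD and UQCR11 each name a second, overlapping gene row. By complex, 39 rows belong to complex I, 5 to complex II, 10 to complex III, 15 to complex IV and 17 to complex V. NDUFA4 carries a complex I name but was counted with complex IV, where its protein is now placed. ATP5S and ATP5L2 are outside the assembled ATP synthase or a paralog of its subunit.

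RNA was sequenced from untreated AID-DIvA cells, a line derived from the human osteosarcoma line U2OS that carries an inducible AsiSI endonuclease, which was not induced in these samples. Each genotype, WT and ARID1A-KO, had 3 samples, which the labels number 3 to 5. ARID1A is a subunit of the BAF chromatin remodelling complex and was disrupted by electroporation of Cas9 with 2 guides against exon 1. Knockout clones were established, and because the clone or clones behind these samples are not given in the sources used here, a difference between clones and a difference between genotypes cannot be told apart. The study describes its replicates of the expression data as independent experiments, so p-values measure the spread between such experiments.

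ARID1A itself fell from 61.5 ± 1.73 TPM (SD, n = 3) to 9.17 ± 0.587 TPM, a log2 fold change of -2.74 (SE 0.068, edgeR adjusted p = 9.66e-08). Total counts ranged from 54512105 to 84088708 per sample, and no sample stood apart by depth. Of 9 osteoblast markers 6 were expressed enough to be tested. Of these 4 fell (ALPL, COL1A1, SPARC and SPP1), beside 18.4% of all genes tested. RUNX2 was at 6.0 ± 0.631 TPM in WT and 5.86 ± 1.74 TPM in ARID1A-KO, and BGLAP, IBSP and SP7 lay under the filter in both genotypes. The summed level of these 9 markers was 716 to 759 TPM in WT and 393 to 440 TPM in ARID1A-KO. Blood markers summed to under 1 TPM in every sample, muscle markers to 2.77 to 10.1 TPM in WT and 2.99 to 3.98 TPM in ARID1A-KO, and 3 epithelial markers to 172 to 204 TPM in WT and 94.1 to 104 TPM in ARID1A-KO. These sums hide both directions. Of the 3 epithelial markers 1 was called higher and 2 lower, and of 3 muscle markers tested 1 was called higher and 1 lower. Over all genes tested 17.8% were higher and 18.4% lower. The endothelial marker VWF was at 0.504 to 0.654 TPM over all samples. The part of these markers in the members' results was not tested.

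Complex I, NADH dehydrogenase, and complex II, succinate dehydrogenase, feed electrons into the chain. Complex III passes them to cytochrome c, complex IV hands them to oxygen, and complex V, ATP synthase, makes ATP from the proton gradient that complexes I, III and IV build. The subunits come from both genomes, and nuclear genes of the chain are known as targets of the transcription factors NRF1 and GABPA and of the PGC-1 coactivators.

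As a group the nuclear respiratory chain genes moved little between the genotypes. After the filter on low counts 78 of the 86 rows were tested, and 21 changed at an edgeR adjusted p under 0.05, 11 higher and 10 lower in ARID1A-KO. That is 26.9% of the members tested, beside 36.2% of all 19599 genes tested (17.8% higher and 18.4% lower). Among genes with a mean of at least 10 CPM (counts scaled to library size), 28.4% of the 74 members and 39.4% of all 9922 genes changed. In such bulk samples fewer cells of a type and less RNA per cell cannot be told apart. The median log2 fold change was 0.028 over the members and 0.0066 over all genes tested. The median size of the change, regardless of sign, was 0.086 on the log2 scale for members against 0.27 for all genes tested, and 0.080 against 0.18 among genes of at least 10 CPM. A log2 fold change within 0.1 of zero was found for 41 members (52.6%) and for 22.6% of all genes tested, and 2 members (2.56%) moved by at least 1, beside 11.7% of all genes. These 2 were ATP5G1 and the very low COX6B2, which did not pass the test. The CPM of the genotypes did not overlap for 16 members higher and 13 lower, that is 29 of 78, beside 49.5% of all genes (24.8% in each direction). With WT 3, WT 5 or ARID1A-KO 3 left out, 7 members in place of 11 were higher, beside 13.2%, 14.6% and 14.1% of all genes tested.

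**Figure D1:**
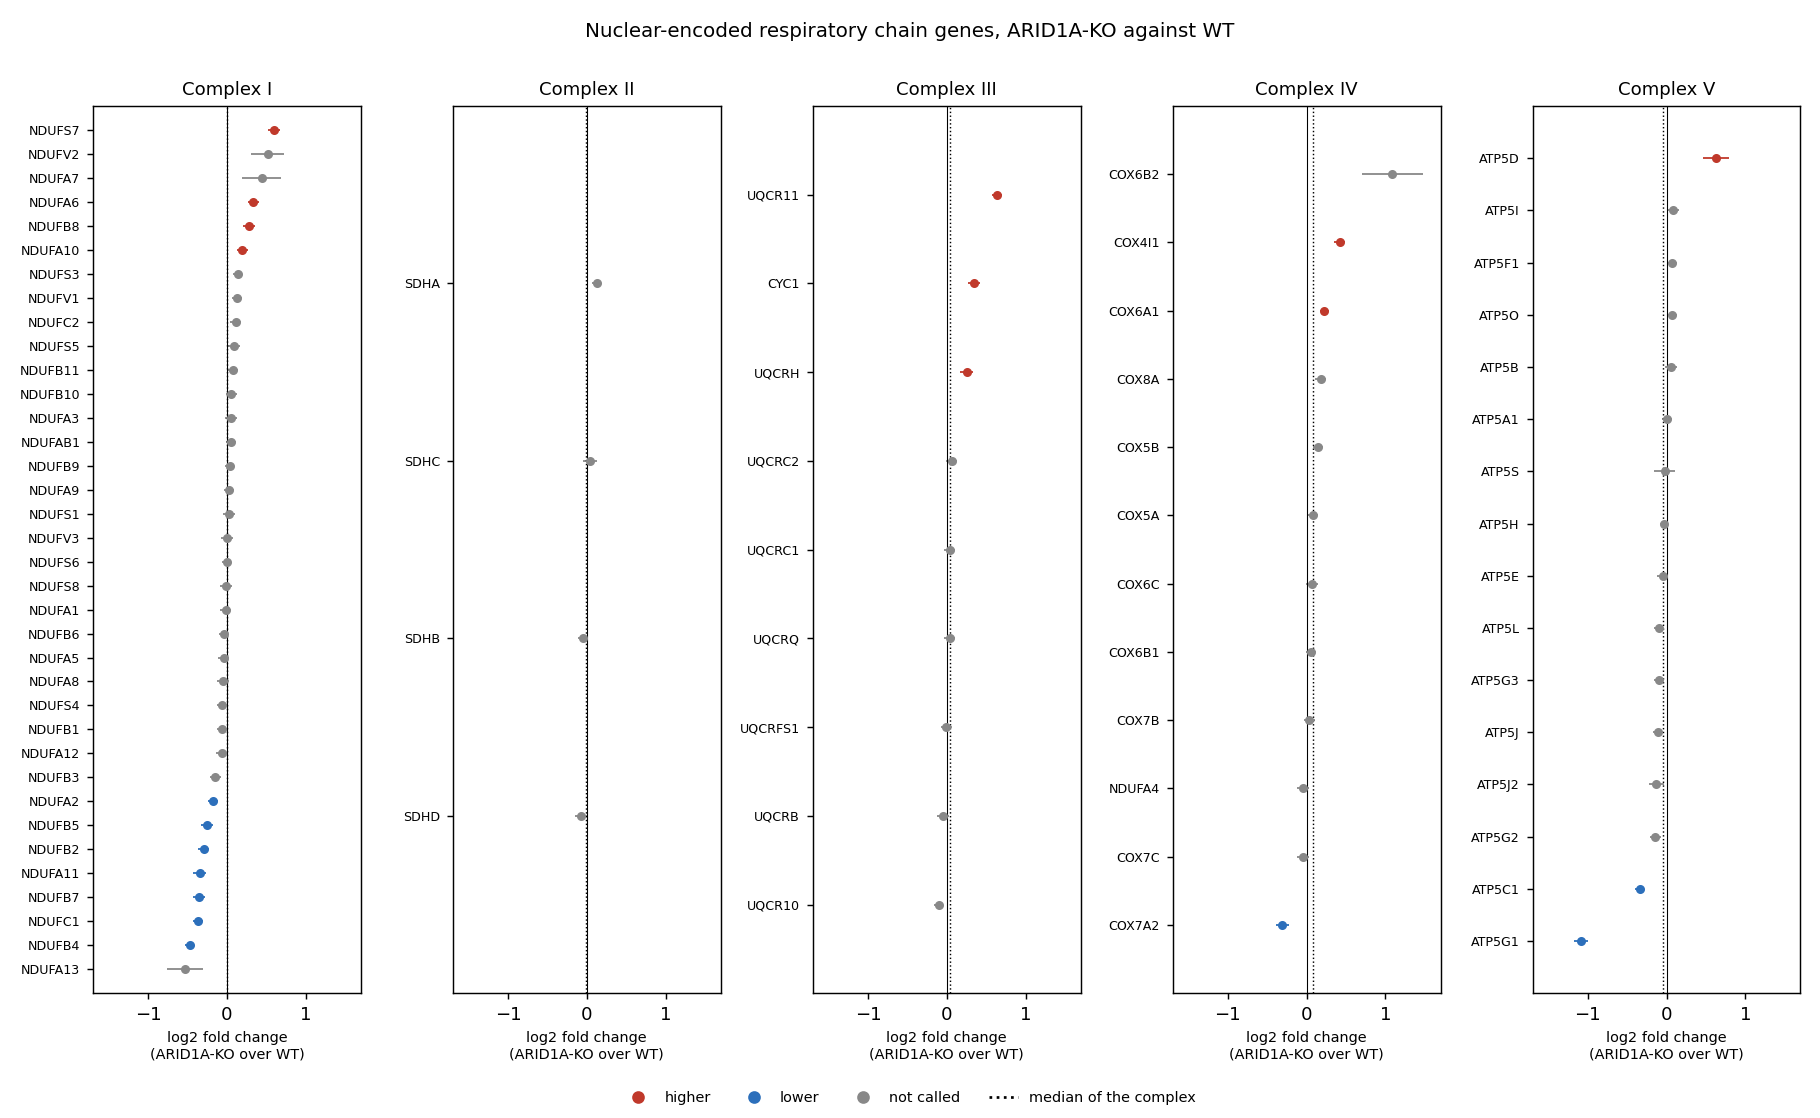
Log2 fold change of 77 members tested, ARID1A-KO over WT, from edgeR counts (x axis), for the named genes of complexes I to V (y axis). Points are estimates with bars of 1 SE, red and blue points are higher and lower members, and dotted lines mark the median of each complex, which lies between -0.041 and 0.075, while ATP5G1 sits alone near -1.08.

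By complex, the share of tested members that changed ran from 0 to 33.3%, beside the 36.2% of all genes tested. Complex I had 12 of 37 changed (32.4%), 5 higher and 7 lower, with a median log2 fold change of 0.0015. Of the 4 complex II members tested 0 passed edgeR's test, 0 had an unadjusted p under 0.05 and DESeq2 called 0 (complex II median log2 fold change -0.0041). Complex III had 3 of 9 changed (33.3%), all higher, with a median of 0.037, and 0 were lower in edgeR at an unadjusted p under 0.05 or in DESeq2. Complex IV had 2 higher and 1 lower of 12 (25.0%) and a median of 0.075. Complex V had 1 higher and 2 lower of 16 (18.8%) and a median of -0.041. Differences between complexes were not tested.

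Transcript levels summed over a complex, in deposited TPM (transcripts per exonic length, scaled to the same total in each sample), moved by less than 10% for every complex. All 86 rows summed to 13670 ± 202 TPM in WT and 13850 ± 125 TPM in ARID1A-KO (SD, n = 3), and the genotypes overlapped. Complex III summed to 2374, 2494 and 2474 TPM in WT and 2637, 2644 and 2710 TPM in ARID1A-KO, 8.81% higher with no overlap. Most of this gain came from CYC1, at a mean of 465.2 TPM in WT and 589.6 TPM in ARID1A-KO, and UQCRH, at 436.4 and 516.7 TPM. Complex I summed to 4203, 4243 and 4237 TPM in WT and 4166, 4180 and 4135 TPM in ARID1A-KO, 1.60% lower, again with no overlap. The mean sum of the 13 protein genes of the mitochondrial genome was 209100 TPM in WT and 224500 TPM in ARID1A-KO. That rise leaves less of the fixed total to all other genes. The complex I median log2 fold change from counts was 0.0015, and the part of the scaling in the lower sum was not tested. The sums of complexes II, IV and V overlapped between genotypes. As a share of all counts the members took 0.874% to 0.896% in WT and 0.917% to 0.948% in ARID1A-KO.

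**Figure D2:**
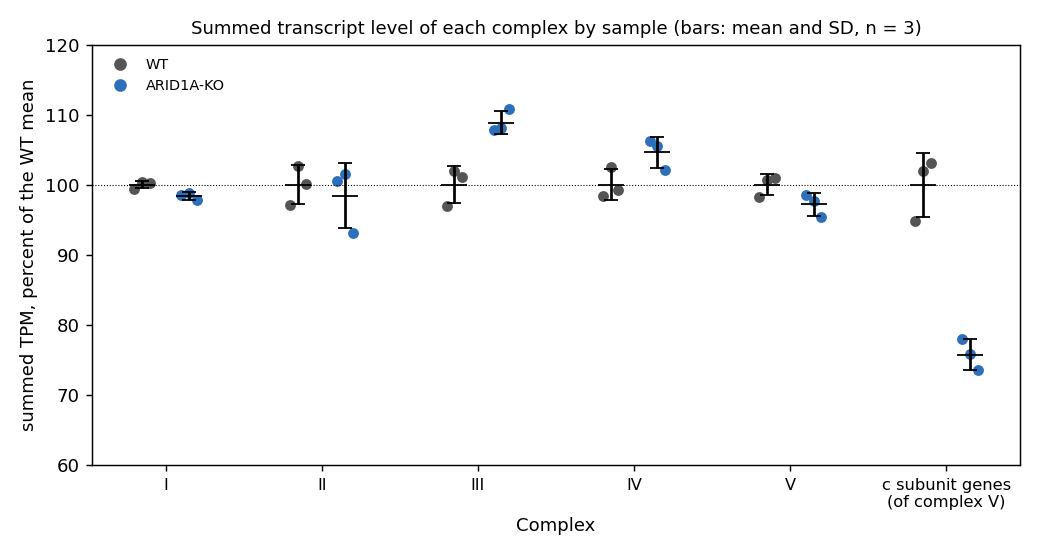
Summed TPM of each complex, and of the c subunit genes of complex V, in each sample as a percent of the WT mean (y axis, which starts at 60), with WT in grey, ARID1A-KO in blue, and bars for the mean and SD of 3 samples. Complex III lies above WT in all 3 ARID1A-KO samples, complex I slightly below, and the c subunit genes fall by 24.2%.

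ATP5G1 showed the largest change of any member that passed the test. It is 1 of 3 nuclear genes, ATP5G1, ATP5G2 and ATP5G3 (now ATP5MC1, ATP5MC2 and ATP5MC3), that encode the same mature c subunit, the proton-carrying ring of ATP synthase, behind different import sequences. ATP5G1 (ENSG00000159199.9, chromosome 17 from 46970127 to 46973233, plus strand, GRCh37) was at 121.9, 140.3 and 134.5 TPM in WT and at 63.3, 64.7 and 58.3 TPM in ARID1A-KO. Every knockout sample lay below every WT sample, and the fitted ratio of the counts was 0.472. The log2 fold change was -1.08 (SE 0.084, edgeR adjusted p = 2.19e-05). The gene passed the test in 19 of 19 other settings, which include the 6 fits that left out a sample.

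The 2 sister genes did not pass the test. ATP5G2 was at 136, 144.4 and 151.3 TPM in WT and at 134.2, 129.5 and 125.8 TPM in ARID1A-KO, a log2 fold change of -0.14 (SE 0.073, edgeR adjusted p = 0.163). ATP5G3 was at 100.6, 101.2 and 104.4 TPM in WT and at 97.4, 92.4 and 94.1 TPM in ARID1A-KO, a log2 fold change of -0.10 (SE 0.063, edgeR adjusted p = 0.243). In WT the order was ATP5G2 at 143.9 ± 7.70 TPM, ATP5G1 at 132.2 ± 9.42 TPM and ATP5G3 at 102.0 ± 2.06 TPM, and the first pair lay within the spread of their samples. In ARID1A-KO ATP5G1 was the lowest of the set in all 3 samples. This order depends on the division by exonic length, which is 2615, 3991 and 6780 bases for ATP5G1, ATP5G2 and ATP5G3. In CPM ATP5G1 was already the lowest in WT, at a mean of 105.3, beside 175 for ATP5G2 and 210.7 for ATP5G3. The share of ATP5G1 in the summed TPM of the set fell from 34.9% ± 1.25 to 21.7% ± 0.829 (SD, n = 3). The sum fell from 378 ± 17.2 to 287 ± 8.39 TPM, with no overlap, and the sizes of both falls depend on exonic length too.

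Promoter windows of 300 bases, 250 before to 50 after the annotated start, are shown for the members with the largest change in each direction, ATP5G1 lower and UQCR11 higher, for ATP5G2 as a sister gene that did not pass the test, and for COX8A and UQCRFS1, both abundant and not called. All are from RefSeq on GRCh38.p14, 5′ to 3′ on the strand of the gene. Capitals mark matches, on either strand, to 7 short motifs. For NRF1 the letters GCGCATG were searched. For the ETS family, to which GABPA belongs, they were CCGGAAG. For YY1, a zinc finger factor, they were ATGGCGG. For SP1, which binds GC boxes, they were GGGCGGG. The CCAAT box, bound by NF-Y, was searched as named. For the cyclic AMP response element (CRE) the letters were TGACGTC. For the E-box, bound by MYC and USF factors, they were CACGTG. The CRE and E-box, and ATP5G2, were added after the sequences and values had been seen.
ATP5G1, chr17:48892537-48892836, plus strand: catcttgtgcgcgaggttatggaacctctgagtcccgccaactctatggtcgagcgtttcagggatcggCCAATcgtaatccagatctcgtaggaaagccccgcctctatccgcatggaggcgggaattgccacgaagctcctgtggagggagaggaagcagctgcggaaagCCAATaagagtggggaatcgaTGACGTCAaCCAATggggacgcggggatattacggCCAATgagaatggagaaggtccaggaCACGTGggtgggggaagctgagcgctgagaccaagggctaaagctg
ATP5G2, chr12:53676034-53676333, minus strand, 1 of its 3 listed windows: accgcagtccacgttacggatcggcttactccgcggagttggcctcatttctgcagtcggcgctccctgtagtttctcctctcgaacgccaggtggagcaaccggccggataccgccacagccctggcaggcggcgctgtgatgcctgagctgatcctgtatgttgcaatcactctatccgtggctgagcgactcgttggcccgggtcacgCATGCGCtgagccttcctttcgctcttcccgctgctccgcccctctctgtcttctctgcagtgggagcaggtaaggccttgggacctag
UQCR11, chr19:1605413-1605712, minus strand: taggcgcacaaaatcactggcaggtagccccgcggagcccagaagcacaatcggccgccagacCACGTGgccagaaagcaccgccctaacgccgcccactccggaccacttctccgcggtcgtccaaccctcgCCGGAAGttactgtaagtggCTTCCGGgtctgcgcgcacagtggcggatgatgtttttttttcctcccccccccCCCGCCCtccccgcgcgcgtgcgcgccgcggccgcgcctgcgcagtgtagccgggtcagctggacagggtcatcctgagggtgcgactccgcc
COX8A, chr11:63974370-63974669, plus strand: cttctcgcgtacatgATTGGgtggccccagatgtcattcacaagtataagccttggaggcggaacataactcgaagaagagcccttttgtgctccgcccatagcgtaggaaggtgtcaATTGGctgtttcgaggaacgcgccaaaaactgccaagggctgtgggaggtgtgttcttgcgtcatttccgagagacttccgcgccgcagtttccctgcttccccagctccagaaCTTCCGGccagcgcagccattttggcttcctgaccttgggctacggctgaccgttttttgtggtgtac
UQCRFS1, chr19:29213102-29213401, minus strand: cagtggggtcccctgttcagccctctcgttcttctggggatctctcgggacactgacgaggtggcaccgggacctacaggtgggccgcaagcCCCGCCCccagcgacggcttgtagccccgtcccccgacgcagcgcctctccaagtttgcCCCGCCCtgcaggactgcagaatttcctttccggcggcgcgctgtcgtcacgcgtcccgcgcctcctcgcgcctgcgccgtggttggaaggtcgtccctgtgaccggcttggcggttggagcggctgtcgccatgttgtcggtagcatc

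The ATP5G1 window holds 4 CCAAT matches, at bases 70, 173, 203 and 229 counted from its 5′ end, a CRE whose palindrome reads on both strands from base 194, and an E-box at base 255. The ATP5G2 window shown holds an NRF1 match and no other, while each of its other listed windows, which are not shown, holds 1 CCAAT match. Windows with at least 4 CCAAT matches made up 3 of the 64 member genes with an entry (4.69%, namely ATP5G1, NDUFS8 and ATP5E) and 1.20% of all 27305 genes of every kind in the table. The NRF1 letters were in 23.4% of member genes and 5.30% of all genes, the ETS letters in 31.3% and 12.2%, and the YY1 letters in 32.8% and 6.66%. The SP1 letters were in 31.3% of member genes and 36.7% of all genes, CCAAT in 34.4% and 39.7%, the CRE in 10.9% and 4.20%, and the E-box in 10.9% and 8.78%. None of the 7 letter strings contains another. Among called members 6 of the 17 with an entry held the NRF1 letters, and among members tested and not called 9 of 46. A match is a description of letters and not of bound sites.

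The F1 head of ATP synthase, which carries the catalytic sites, had 1 subunit gene higher and 1 lower of 5. That is 20% each, near the 17.8% higher and 18.4% lower of all genes tested. ATP5C1, encoding the gamma subunit that turns inside the head, was at 355.9, 347.0 and 349.2 TPM in WT and 277.1, 268.8 and 280.3 TPM in ARID1A-KO, with the groups far apart (log2 fold change -0.34, SE 0.057, edgeR adjusted p = 0.00148). ATP5D, encoding the delta subunit, was at 68.7, 64.2 and 84.5 TPM in WT and 84.2, 109.0 and 142.8 TPM in ARID1A-KO. The knockout samples of ATP5D spread widely and the lowest of them met the highest WT sample in TPM, though not in CPM. Its log2 fold change was 0.63 (SE 0.16, edgeR adjusted p = 0.0135), and the adjusted p was 0.0592 without WT 3. The catalytic and most abundant subunit genes did not pass the test. ATP5B, encoding the catalytic beta subunit and the most abundant member of all, was at 1298 ± 20 TPM in WT and 1342 ± 53.8 TPM in ARID1A-KO (log2 fold change 0.057, edgeR adjusted p = 0.574). ATP5A1, encoding the alpha subunit, was at 222.6 ± 1.11 and 222.4 ± 2.22 TPM (log2 fold change 0.0064, edgeR adjusted p = 0.948). Of the 4 peripheral stalk genes and 3 other membrane subunit genes, edgeR called 0, beside 36.2% of all genes tested. DESeq2 also called 0 of these, and 0 had an unadjusted edgeR p under 0.05. Their log2 fold changes lay between -0.13 and 0.087.

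**Figure D3:**
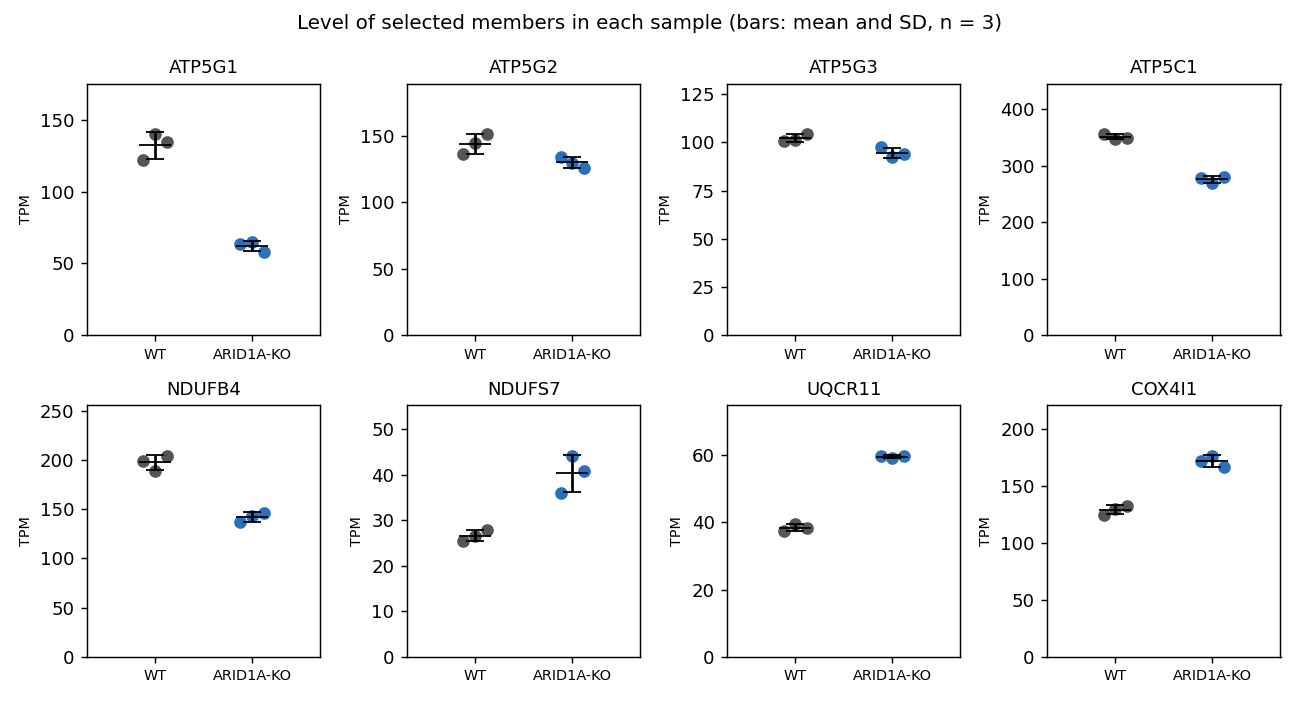
TPM (y axis, from 0) of 8 members in each WT sample (grey) and ARID1A-KO sample (blue), with bars for the mean and SD of 3 samples. ATP5G1, ATP5C1 and NDUFB4 are lower and NDUFS7, UQCR11 and COX4I1 higher in every ARID1A-KO sample, while ATP5G2 and ATP5G3 lie only slightly below WT.

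Complex I holds 37 of the 78 members tested, and 30 of these 37 are accessory subunits, which surround the catalytic core. Of the 30 accessory members 3 were higher and 7 lower (23.3% lower, beside 18.4% of all genes), with a median log2 fold change of -0.028. Of the 7 core subunits 2 were higher (28.6%, beside 17.8% of all genes) and none lower (beside 18.4%), with a median of 0.13. With so few core subunits these shares are coarse, and the difference between core and accessory subunits was not tested. NDUFB4, an accessory subunit of the membrane arm, was at 198.9, 189.0 and 204.3 TPM in WT and 136.5, 143.3 and 146.0 TPM in ARID1A-KO (log2 fold change -0.47, SE 0.057, edgeR adjusted p = 0.000253). NDUFC1, also of the membrane arm, was at 87.8, 85.2 and 88.1 TPM in WT and 64.0, 68.9 and 68.9 TPM in ARID1A-KO (log2 fold change -0.37, SE 0.058, edgeR adjusted p = 0.00113). Neither pair of groups overlapped. NDUFB7 fell from 395.4 ± 30.2 to 307.4 ± 20.7 TPM and NDUFA11 from 22.3 ± 0.913 to 17.5 ± 1.93 TPM, log2 fold changes of -0.36 and -0.35 (edgeR adjusted p = 0.00600 and 0.00869). The other lower members, NDUFB2, NDUFB5 and NDUFA2, had log2 fold changes of -0.30, -0.25 and -0.18. NDUFA2 was just inside the threshold, with an edgeR adjusted p of 0.0498, and it and NDUFB5 were called in only 1 of 6 fits that left out a sample.

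Of the 7 core subunits, which carry the flavin, the iron-sulphur clusters and the quinone site, the gene with the larger rise was NDUFS7. NDUFS7, which holds the last cluster before ubiquinone, was at 25.5, 26.5 and 27.8 TPM in WT and 36.0, 44.2 and 40.7 TPM in ARID1A-KO (log2 fold change 0.60, SE 0.077, edgeR adjusted p = 0.000332). All knockout samples of NDUFS7 lay above all WT samples. In CPM NDUFV1, with the NADH site, and NDUFS3 were also above WT in every sample, at log2 fold changes of 0.13 each. Neither passed the test (edgeR adjusted p = 0.143 and 0.0832). In TPM the genotypes overlapped for NDUFV1, at 117.5, 127.3 and 123.5 in WT and 124.0, 138.4 and 138.3 in ARID1A-KO. NDUFS1, with the largest number of clusters, went from 33.0 ± 0.956 to 33.4 ± 1.95 TPM, and NDUFS8 from 68.2 ± 6.17 to 67.7 ± 4.05 TPM. NDUFV2 was listed at 1.80 to 3.24 TPM in WT and 2.96 to 3.82 TPM in ARID1A-KO, far below its partners of the core, and overlaps another gene on its strand, so its value is uncertain.

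Accessory genes that rose were NDUFA6, NDUFB8 and NDUFA10. NDUFA6 was at 161.2, 165.5 and 157.5 TPM in WT and 211.8, 199.1 and 196.0 TPM in ARID1A-KO, with no overlap (log2 fold change 0.33, SE 0.069, edgeR adjusted p = 0.00465). NDUFB8 went from 15.7 ± 0.605 to 19.0 ± 0.527 TPM (log2 fold change 0.28, edgeR adjusted p = 0.0205) and NDUFA10 from 38.2 ± 1.57 to 43.6 ± 1.67 TPM (log2 fold change 0.20, edgeR adjusted p = 0.0456). Each of the last pair was called in 2 of 6 fits that left out a sample, with adjusted p-values of 0.0946 and 0.170 without ARID1A-KO 4. NDUFS5, the most abundant complex I gene, was at 800.9 ± 26.5 TPM in WT and 844.3 ± 52.5 TPM in ARID1A-KO and did not pass the test (edgeR adjusted p = 0.428). NDUFA13 and NDUFA7, like NDUFV2, were listed near 1 to 3 TPM beside same-strand overlapping genes and did not pass.

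Complex II, which also works in the TCA cycle, had no gene with a change that passed the test. SDHA, with the flavin, was at 49.5 ± 1.08 TPM in WT and 53.6 ± 1.87 TPM in ARID1A-KO (log2 fold change 0.12, SE 0.057, edgeR adjusted p = 0.124). SDHB, with the iron-sulphur clusters, was at 132.9 ± 3.28 and 127.7 ± 4.57 TPM (log2 fold change -0.050, SE 0.067). SDHD, a membrane anchor and the most abundant of the complex, was at 166.3 ± 5.61 and 157.2 ± 7.92 TPM (log2 fold change -0.073, SE 0.072). These differences were smaller than any that passed the test elsewhere among the members.

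Complex III had the 3 rises UQCR11, CYC1 and UQCRH, and no member was called lower. UQCR11, a small subunit of the membrane part, was at 37.4, 39.5 and 38.4 TPM in WT and 59.9, 59.1 and 59.8 TPM in ARID1A-KO. The groups were wide apart and each was tight (log2 fold change 0.64, SE 0.066, edgeR adjusted p = 0.000106). CYC1, cytochrome c1, which hands electrons to cytochrome c, was at 456.1, 442.1 and 497.5 TPM in WT and 537.9, 578.6 and 652.2 TPM in ARID1A-KO (log2 fold change 0.35, SE 0.074, edgeR adjusted p = 0.00567). CYC1 was called in 16 of 19 other settings. It was not called with the median change of its chromosomal neighbours within 5 Mb or 1 Mb taken off (edgeR adjusted p = 0.189 and 0.178). An offset on GC content also ended its call (edgeR adjusted p = 0.394). UQCRH, the hinge protein beside cytochrome c1, was at 415.6, 466.2 and 427.3 TPM in WT and 543.9, 525.7 and 480.4 TPM in ARID1A-KO (log2 fold change 0.25, SE 0.084, edgeR adjusted p = 0.0417). Its CPM overlapped between genotypes, and it was called in 2 of 6 fits that left out a sample, with an adjusted p of 0.147 without WT 3. The Rieske iron-sulphur protein gene UQCRFS1, the most abundant of the complex in WT by TPM, was at 479.1 ± 14.5 TPM in WT and 476.2 ± 37 TPM in ARID1A-KO. In ARID1A-KO CYC1 and UQCRH had the higher mean TPM. This order depends on exonic length. In CPM CYC1 was above UQCRFS1 in both genotypes, at means of 279.9 against 223.3 in WT and 355.5 against 222.7 in ARID1A-KO.

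Complex IV, cytochrome c oxidase, has subunits that exist as broad and tissue-restricted isoforms, and in both genotypes only the broad forms were well expressed. COX4I1, the broad form of subunit 4, was at 124.3, 129.8 and 132.2 TPM in WT and 171.6, 176.2 and 165.9 TPM in ARID1A-KO, with no overlap (log2 fold change 0.42, SE 0.066, edgeR adjusted p = 0.00111). COX4I2, its partner isoform, had 0 to 3 counts in any sample and was not tested. COX6A1 rose from 160.9 ± 1.82 to 187.3 ± 4.64 TPM (log2 fold change 0.23, edgeR adjusted p = 0.0176, called in 3 of 6 fits that left out a sample, adjusted p = 0.0770 without ARID1A-KO 3), and its muscle form COX6A2 had 0 counts in all samples. COX7A2 was at 261.8, 277.4 and 252.7 TPM in WT and 222.2, 217.2 and 196.2 TPM in ARID1A-KO (log2 fold change -0.31, SE 0.080, edgeR adjusted p = 0.0146), and its muscle form COX7A1 had 0 counts in all samples. COX6B1 went from 458.8 ± 7.75 to 474.8 ± 16.8 TPM, and its testis form COX6B2 was at 0.105, 0.290 and 0.147 TPM in WT and 0.304, 0.328 and 0.524 TPM in ARID1A-KO (log2 fold change 1.09, SE 0.39, edgeR adjusted p = 0.0545). COX8A, the most abundant gene of the complex, was above WT in every ARID1A-KO sample but did not pass the test, at 614.6 ± 28.8 and 692.5 ± 29.9 TPM (edgeR adjusted p = 0.0818).

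The other 8 rows were not tested because of low counts. They were the second rows of NDUFA7, NDUFB8, SDHD and UQCR11, then COX4I2, COX6A2, COX7A1 and ATP5L2, with 0 to 4 counts in any sample. Of the members tested, 30 overlap another gene row on the same strand, among them the called NDUFC1, NDUFA11, NDUFB2, NDUFB5, NDUFA10, NDUFB8, NDUFA6, UQCR11 and COX6A1, and reads in such overlaps, or shared with processed pseudogenes, make their counts less certain.

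Some of the 21 called members lay among neighbours that had moved the same way. For each member the median log2 fold change of the other genes tested within 5 Mb on its chromosome was taken. Over the 78 members the change of the member and this median had a Pearson r of 0.471 (Spearman rho 0.502). It was 0.608 over the 21 called members and 0.238 over the 57 not called, beside 0.248 over all genes, which were not matched for level. These points share libraries and, for close genes, neighbours. Of 8 called members whose neighbours had a median beyond 0.2 in either direction, 8 moved in the direction of their neighbours. Of 4 such members that were not called, 3 did. The matching share was not counted over all genes, so these counts have no baseline. NDUFB4 had a neighbour median of -0.43 over 61 genes, of which 38 were called lower and 1 higher. NDUFB7 had -0.36 over 264 genes, NDUFC1 -0.58 over 35, COX7A2 -0.31 over 40, COX4I1 0.34 over 107 and NDUFB8 0.42 over 123. For NDUFB5 it was -0.26 over 60 genes and for CYC1 0.21 over 109.

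A trio that rose, ATP5D, NDUFS7 and UQCR11, lies close together on chromosome 19 of GRCh37, at 1241749 to 1244824, 1383526 to 1395583 and 1597171 to 1605480. The genes tested within 1 Mb of NDUFS7, a distance chosen after the data had been seen, had a median of 0.59 over 88 genes, of which 63 were called higher and 2 lower, ATP5D and UQCR11 among them. The medians were 0.58 over 84 genes for ATP5D and 0.54 over 83 genes for UQCR11, from windows that overlap. ATP5C1 had a median of -0.68 over the 10 genes within 1 Mb, but -0.034 over 60 within 5 Mb.

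ATP5G1 and NDUFA6 stood among neighbours that had moved little. The ATP5G1 median was 0.050 over 173 genes within 5 Mb and 0.040 over 52 genes within 1 Mb. For NDUFA6 the medians were 0.035 and -0.028. NDUFA2, called lower, had neighbours with a median of 0.26 over 82 genes within 1 Mb. When the neighbours' median within 5 Mb was taken off each gene, 11 members were called, beside 32.0% of all genes, and 9 of the 21 calls were kept. When that within 1 Mb was taken off, 21 members were called, beside 33.5% of all genes, but only 5 of the 21 were the same. ATP5G1, NDUFA6 and NDUFA2 were among those called under both. NDUFA2, however, was called in only 1 of 6 fits that left out a sample. Its log2 fold change went from -0.18 to -0.25 with the 5 Mb offset and to -0.44 with the 1 Mb offset. The part of the neighbourhood in the other changes was not tested.

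**Figure D4:**
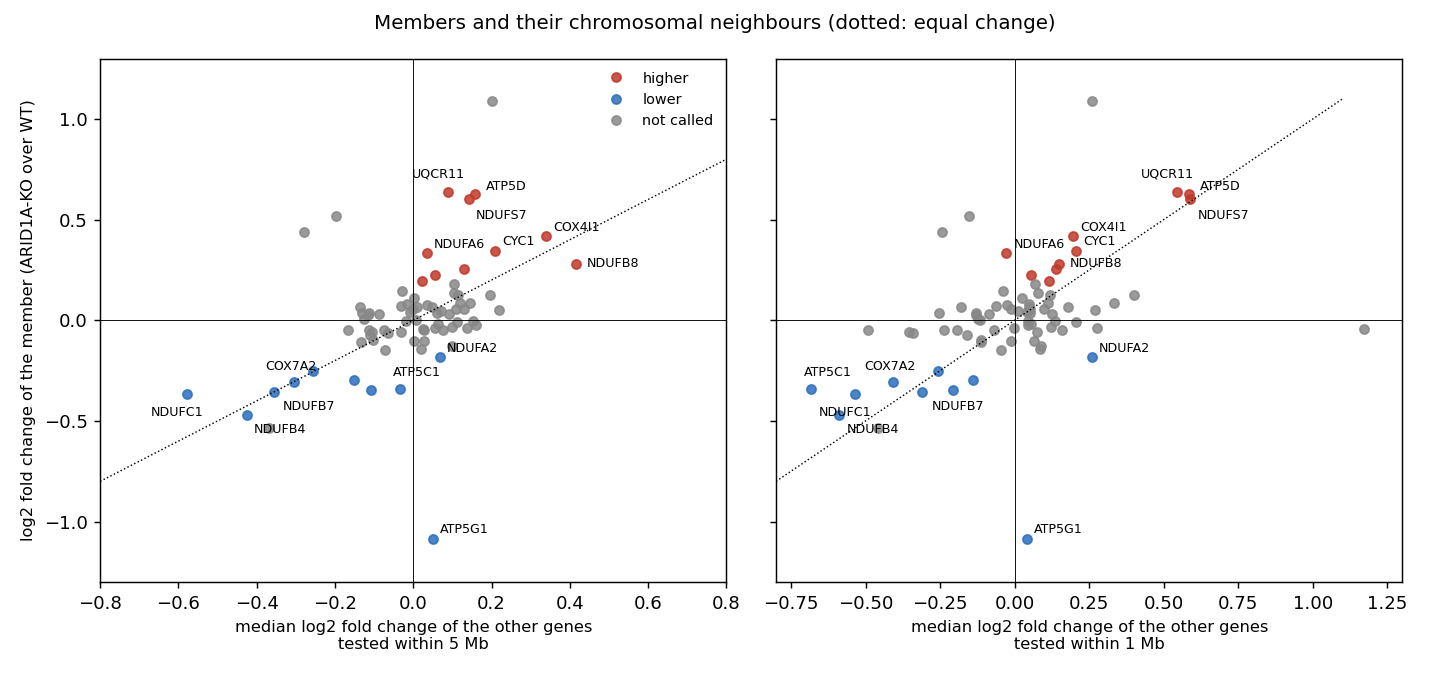
Log2 fold change of 77 members (y axis) against the median log2 fold change of the other genes tested within 5 Mb (left) and 1 Mb (right) of it (x axis), with higher members red, lower members blue and others grey. NDUFB4, NDUFC1, NDUFB7 and COX7A2 lie at lower left with neighbours that fell, ATP5D, NDUFS7 and UQCR11 lie near equality only in the 1 Mb panel, and ATP5G1 lies far below neighbours with a median near 0.

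Genes around the nuclear subunits changed in both directions, beside 36.2% of all genes tested (17.8% higher and 18.4% lower). Of the 13 protein genes of the mitochondrial genome, which encode the remaining core subunits, 2 were called higher (15.4%) and none lower, MT-ND4 (log2 fold change 0.28, edgeR adjusted p = 0.0418) and MT-ND3 (log2 fold change 0.23, edgeR adjusted p = 0.0453), both of complex I. Each was called in only 2 of 6 fits that left out a sample, with adjusted p-values of 0.154 and 0.155 without WT 5, and neither was called from unstranded counts (edgeR adjusted p = 0.0661 and 0.298). Together the 13 took 205300 to 213100 TPM in WT and 218100 to 236000 TPM in ARID1A-KO, with no overlap.

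Assembly factors, which build the complexes without staying in them, were called for 5 of 16 in complex I (31.3%), 2 of 4 in complex II (50%), 1 of 6 in complex III (16.7%) and 5 of 22 in complex IV (22.7%). Of the complex I factors 1 rose (NDUFAF1, log2 fold change 0.34) and 4 fell, among them ACAD9 at -0.44 and ECSIT at -0.31. NDUFAF1 was called in 2 of 6 fits that left out a sample (edgeR adjusted p = 0.0958 without ARID1A-KO 4). ACAD9 and ECSIT had neighbour medians of -0.42 and -0.29 within 5 Mb, and with these taken off their log2 fold changes were -0.020 and -0.015 (edgeR adjusted p = 0.844 and 0.905). Of the complex II factors SDHAF1 rose by 0.49 and C6orf57 (SDHAF4) fell by 0.82 on the log2 scale, the latter with an adjusted p of 0.118 when the neighbours within 1 Mb were taken off. The complex III factor UQCC2 fell by 0.18 on the log2 scale and was called in 2 of 6 fits that left out a sample (edgeR adjusted p = 0.132 without ARID1A-KO 4). Of the complex IV factors 3 rose and 2 fell, with SURF1 at 0.32, SCO2 at 0.28 and PET100 at -0.46. SURF1 was called with any sample left out, but SCO2 in only 1 of 6 such fits (edgeR adjusted p = 0.121 without ARID1A-KO 4), and SCO2 was not called from unstranded counts (edgeR adjusted p = 0.133). PET100 was not called once its neighbours within 5 Mb or 1 Mb were taken off (edgeR adjusted p = 0.253 and 0.144). Of 5 complex V factors edgeR and DESeq2 called 0, and 1 had an unadjusted edgeR p under 0.05.

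Of 12 regulators of mitochondrial gene expression 4 rose (33.3%, beside 17.8% of all genes), and 0 were lower by edgeR or DESeq2, with 2 lower at an unadjusted edgeR p under 0.05. They included POLRMT, the mitochondrial RNA polymerase, at a log2 fold change of 0.89 (SE 0.11, edgeR adjusted p = 0.000253), the PGC-1 related coactivator PPRC1 at 0.64 (edgeR adjusted p = 0.000167) and the nuclear receptor ESRRA at 0.37 (edgeR adjusted p = 0.0122). The neighbours of POLRMT and PPRC1 within 1 Mb had medians of 0.53 and 0.55, and with these taken off POLRMT was still called and PPRC1 was not (edgeR adjusted p = 0.0308 and 0.373). ESRRA was not called under the 5 Mb neighbour offset or the offset on GC content (edgeR adjusted p = 0.0637 and 0.496). NRF1 went from 17.5 ± 0.531 to 15.2 ± 0.654 TPM and GABPA from 23.0 ± 1.65 to 24.1 ± 0.539 TPM, and neither passed the test (edgeR adjusted p = 0.0571 and 0.435).

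Of 13 TCA cycle genes 4 changed (30.8%). DLST rose by 0.59 on the log2 scale, among neighbours within 5 Mb with a median of 0.39, and was not called with these taken off (edgeR adjusted p = 0.105). The 3 that fell included SUCLG2 at -0.61, called with any sample left out, and IDH3G at -0.34, called in 2 of 6 such fits (edgeR adjusted p = 0.141 without ARID1A-KO 4). Cytochrome c (CYCS) and COX7A2L did not pass the test, with log2 fold changes of 0.068 and 0.014.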

How the data were processed

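Samples were grouped by the genotype in their labels. With the Roddy workflow the authors ran STAR on GRCh37 and then featureCounts, and they deposited raw counts per gene, of which the reverse-stranded ones were used. The authors also deposited TPM values, of which the column with the same sum in each sample gave levels. The labels name polyA RNA and a total RNA kit, and the annotation named in the methods is newer than the gene identifiers in the files. Total counts of 54512105 to 84088708 leave counting error small for all but the lowest genes. The biological coefficient of variation was 0.111, and the chi-square per gene between replicates was 7.57 or more, so no sample was a copy of another.

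After edgeR's filterByExpr and TMM normalization, genotypes were compared by its quasi-likelihood test, with Benjamini-Hochberg adjustment over all 19599 genes (edgeR 4.0.16, R 4.3.3). DESeq2 1.42.0, the study's tool, limma 3.58.1 on log2(TPM + 1) or log2(TPM + 0.1), with a mean TPM of at least 1 or without, other filters, RLE normalization, unstranded counts, a replicate block, offsets by loess (span 0.3) for exonic length and GC content, neighbour offsets within 5 Mb, an adjusted p under 0.01 and each sample left out were alternatives. The 1 Mb neighbour offset was added after seeing the data. The members and lists were chosen with earlier results of these data known. Members named are up to 4 called in each direction per complex, catalytic subunits, isoform sets and the most abundant of each complex, and of other lists up to 3 called. NDUFA10, NDUFB2, NDUFB5, NDUFA2, NRF1, GABPA, CYCS, COX7A2L and the low or overlapping members were named after their values were seen. On simulated counts of 19053 genes, edgeR recovered 31 of 64 genes changed by 0.5, 54 of 66 changed by 1 and 65 of 65 changed by 2 on the log2 scale, and 7 of 157 calls were false. The simulation gave every gene the same coefficient of variation, 0.111, and changed far fewer genes than the 7099 called in the data. Its recovery therefore need not be that of the members. The values of 1 member are not reported here. Promoter windows were from RefSeq (GRCh38.p14).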

Additional observations from a re-analysis of the deposited data

How the results depend on the processing

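The count of 21 members called was 15 to 21 when 1 sample was left out, 7 to 13 of them higher, and the complex III median log2 fold change ran from -0.00284 without WT 3 to 0.10 without ARID1A-KO 5. The offset on exonic length gave 1 complex II call, and the offset on GC content gave medians of 0.065 for complex I and 0.035 for complex V. The offset of neighbours within 5 Mb gave 11 calls, 7 higher and 4 lower, with 7 in complex I, 1 in complex III and 0 in complex IV, a complex III median of 0.117, and reversed NDUFB8 to -0.134 and NDUFC1 to 0.212. The offset of neighbours within 1 Mb gave 2 calls in complex II, 1 in complex III and 5 in complex IV, medians of -0.103, 0.178 and 0.011 for complexes II, IV and V, and reversed NDUFB4 to 0.119, NDUFC1 to 0.169, COX7A2 to 0.101, ATP5C1 to 0.340 and SDHA to -0.279. An adjusted p under 0.01 left 13 calls, 6 higher, with 1 in complex IV, by its construction. For the other settings the cause was not tested. The offset on GC content ended the calls of COX7A2, CYC1, NDUFB2 and NDUFB5, that on length those of COX6A1, NDUFB5, NDUFB8 and UQCRH, and DESeq2 that of NDUFA2.

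The replicate numbers were not treated as pairs in the main test. The correlations of deviations for the same number were -0.177, 0.268 and 0.180. With 3 samples per genotype such correlations cannot settle whether the numbers pair the samples. WT 3 correlated best with ARID1A-KO 5, so not every sample did best with its own number. With the number as a block 21 members were called, 20 of them the same, and 7477 genes in place of 7099. COX6B2 rested on 8 to 52 counts a sample and NDUFA13, beside overlapping genes, on 61 to 151, and the part of depth in their results was not tested.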
